A study of Mus musculus with 11 samples.

Results

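Mouse genes whose symbol is Zfp followed by a 3-digit number of 700 or more were followed in embryonic stem cells (ESCs) that lack Dicer and in ESCs that lack cMyc. A gene was included if it was a protein-coding RefSeq row of the deposited tables with such a symbol, with or without a letter after the number, whatever its values. This gave 109 genes of 19683 coding RefSeq rows in the Dicer table and 106 of 16484 in the cMyc table, out of 136 protein-coding genes of that name in the RefSeq annotation of GRCm38.p6. Zfp804a, Zfp804b and Zfp735 had a row in the Dicer table alone. The number in the symbol is an order of naming and not a gene family, so the Zfp genes with a lower number, 234 in the Dicer table, served as the nearest comparison.

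The RNA was poly(A)-selected from ESCs of strain 129S4/SvJae kept on gelatin without feeder cells. There were 3 Dcr KO libraries, from knockout lines 1, 3 and 4, and 2 Dcr WT libraries, all paired-end. There was 1 cMyc KO library and 1 cMyc flox library, from cells with both cMyc alleles deleted and with both alleles floxed, single-end and in a table of their own. The labels do not say how Dicer and cMyc were deleted, nor that the Dcr WT libraries came from separate cultures. The p-values therefore measure the spread between these 5 libraries.

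Zinc finger proteins of this kind bind DNA through arrays of C2H2 fingers, and in mouse many of them also carry a KRAB domain, which recruits the corepressor Trim28 (KAP1). Trim28 in turn brings the histone methyltransferase Setdb1, HP1 proteins and histone deacetylases, so that bound sites become marked with methylated histone H3 lysine 9. The best known targets of KRAB zinc finger proteins in ESCs are endogenous retroviruses. Many KRAB zinc finger genes lie side by side in clusters that arose by repeated gene duplication. Not every gene of the set has a KRAB domain: Zfp703, Zfp704, Zfp706, Zfp711, Zfp800 and Zfp827 belong to other families.

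The Dcr KO libraries held 247574902 to 278006158 reads and the Dcr WT libraries 101815723 and 206721717. The cMyc KO library held 31633011 reads and the cMyc flox library 24660365, of which ribosomal RNA took 29.96% and 28.1%. Values are normalised read counts, that is, reads divided by 1 factor per library. Dicer1 was lower in Dcr KO, at 8696 ± 1033 (SD, n = 3), than in Dcr WT, at 19462 ± 947 (SD, n = 2). Myc had 10.9 normalised read counts in cMyc KO and 470.04 in cMyc flox. Myc was lower in Dcr KO as well, with 1253, 1054 and 443 in lines 1, 3 and 4, against 10984 and 7478 in Dcr WT (log2 fold change −3.44 ± 0.39, SE; adjusted p = 0.000289). The ESC markers Pou5f1, Sox2 and Nanog did not pass the test between Dcr KO and Dcr WT, and 1 of 8 ESC markers did, Tdgf1, which was lower, with a call lost without Dcr KO line 1, 3 or 4 or without Dcr WT library 1 (adjusted p up to 0.0918).

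Marker lists of fibroblasts and neural cells moved with the Dcr comparison. The summed normalised read count of 8 fibroblast markers was 1092 to 1536 in Dcr KO and 6090 to 10890 in Dcr WT, with 4 of 7 tested markers lower and 1 higher, and with Postn at 0 in the 3 Dcr KO libraries and Lum in 2. The summed count of 7 primitive endoderm markers was 2564 to 3509 in Dcr KO and 3002 to 5534 in Dcr WT, which overlap. Of 5 tested markers 2 were lower, with Afp at 0 in all 5 libraries and Ttr in 4. The call of Gata6, a lower marker of this list, was lost without line 1, line 4 or Dcr WT library 1. That of Dcn, the higher fibroblast marker, was lost without line 1 or 3. The summed count of 6 neural markers was 58966 to 67106 in Dcr KO and 22453 to 44717 in Dcr WT, with 4 markers higher. The part of such cells in the values below was not tested. In bulk RNA, fewer cells of a type and less RNA per cell cannot be told apart.

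The first comparison, Dcr KO against Dcr WT, asks what happens to these genes when ESCs cannot make mature microRNAs. Of the 109 genes, 107 passed the low-value filter; Zfp735 and Zfp957 were listed at 0 in all 5 Dcr libraries. In Dcr KO, 25 of the 107 were higher and 8 lower at an adjusted p under 0.05, that is 23.4% and 7.48%, while 74 did not pass the test. Of all coding RefSeq genes, 20.9% were higher and 22.9% lower, and of all features tested 16.9% and 14.8%. Of the Zfp genes with a lower number, 25.4% were higher and 14.2% lower. The share of higher genes was therefore near that of coding genes and of the other Zfp genes, whereas the share of lower genes was below both, a gap that was not tested.

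The median log2 fold change was 0.17 over the 107 genes, against −0.06 over coding genes, 0.09 over the Zfp genes with a lower number and 0.08 over all features. The sign was positive for 68 and negative for 39. The 3 Dcr KO lines lay above both Dcr WT libraries for 40 genes and below both for 18, or 37.4% and 16.8%, where the shares of coding genes were 31.3% and 35.5% of all features 30.0% and 27.4%, and of the Zfp genes with a lower number 38.8% and 25.9%. Summed over the genes, the normalised read count was 514411, 588534 and 519418 in Dcr KO lines 1, 3 and 4, against 432814 and 451749 in Dcr WT libraries 1 and 2. Scaling to the total count gave 17 higher and 10 lower genes in place of 25 and 8. Over all 42358 features tested it gave 6270 higher and 6957 lower in place of 7171 and 6273. Without the mean-variance trend in limma the counts were 5 and 1, beside 4243 and 3832 of all features. The genes were Zfp711, Zfp827, Zfp800, Zfp704 and Zfp951 higher and Zfp799 lower. Without Dcr WT library 1 the median was 0.04, with 13 genes lower.

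**Figure D1:**
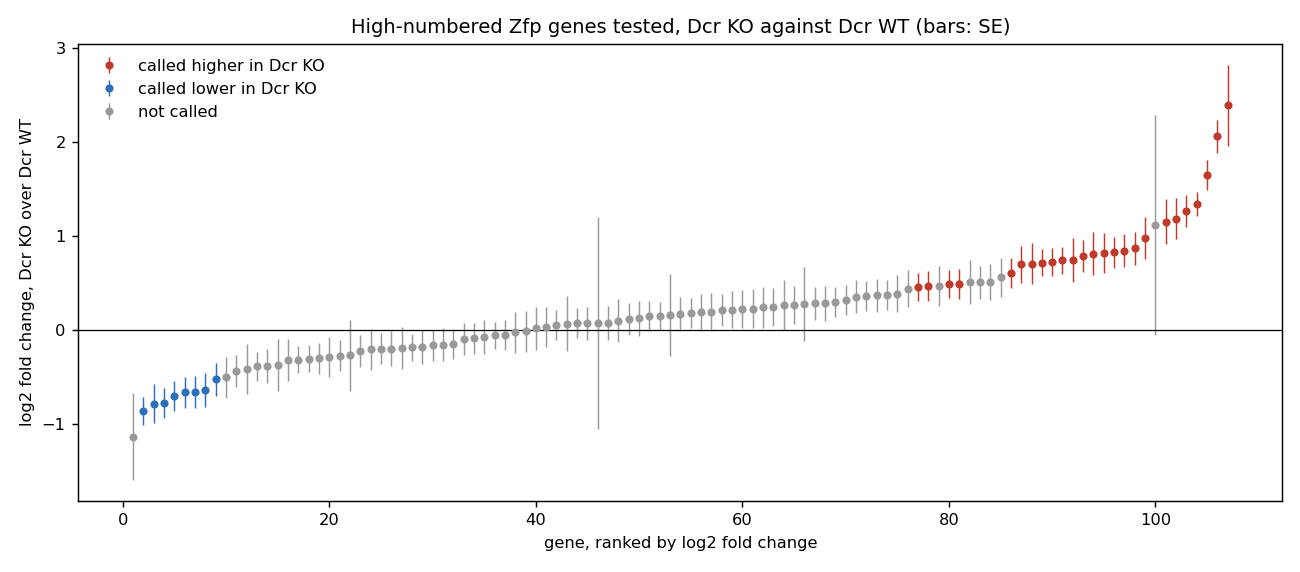
Log2 fold change (Dcr KO over Dcr WT, vertical axis) of the 107 genes tested, ranked along the horizontal axis; bars are the SE of limma, red marks the 25 genes called higher, blue the 8 called lower and grey the 74 not called. Few genes moved far: 7 of the higher genes were past 2-fold, and none of the lower ones.

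Most of the called genes changed by less than 2-fold. Of the 25 higher genes, 7 were past 2-fold, 14 lay between 1.5-fold and 2-fold and 4 under 1.5-fold. Of the 8 lower genes, 7 lay between 1.5-fold and 2-fold and 1 under 1.5-fold. The calls held without each library in turn for 14 of the higher and 3 of the lower genes, and the other 16 were lost without at least 1 library.

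The 3 knockout lines did not stand at the same level. Over the 107 genes, the median log2 difference from the Dcr WT mean was 0.08 in line 1, 0.26 in line 3 and 0.12 in line 4. Line 3 was the highest of the 3 lines for 19 of the 25 called higher genes and for 68 of all 107, and line 1 the lowest for 16 and 51. Dcr WT library 2 was above library 1 for 72 of the 107 genes. With line 3 left out, 16 genes were called higher and 6 lower, beside 3782 and 3847 of all features. The counts were 20 and 3 with line 1 left out, beside 4386 and 4335 of all features. They were 17 and 5 with line 4 left out, beside 4378 and 4275 of all features. With all 5 libraries, 7171 of all features were called higher and 6273 lower, so calls fell across all features too.

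The genes that rose most include several that are not KRAB repressors. Zfp711, a relative of the transcription factor Zfx whose human counterpart is mutated in an X-linked form of intellectual disability, had 457, 693 and 526 normalised read counts in Dcr KO lines 1, 3 and 4, against 58.3 and 185 in Dcr WT libraries 1 and 2. All 3 lines were above both Dcr WT libraries, which themselves differed by a larger ratio than the lines did. The log2 fold change was 2.39 ± 0.43 (SE; adjusted p = 0.00322), or 1.56 without Dcr WT library 1 and 3.22 without library 2.

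Zfp827, whose human counterpart recruits the NuRD complex to telomeres, had 13747, 14893 and 13141 normalised read counts in Dcr KO, against 3983 and 2792 in Dcr WT, a log2 fold change of 2.06 ± 0.17 (SE; adjusted p = 7.01e-05). The lines were close to each other and all more than 3 times the level of either Dcr WT library. Zfp800, a C2H2 protein without a KRAB domain, had 3141, 3280 and 3254 in Dcr KO, against 935 and 1128 in Dcr WT (log2 fold change 1.65 ± 0.16, SE; adjusted p = 0.000142). Zfp704, a relative of Zfp703 in the NET family of zinc finger proteins, had 39785, 44058 and 41684 in Dcr KO, against 16555 and 16425 in Dcr WT (log2 fold change 1.34 ± 0.13, SE; adjusted p = 0.000137). For Zfp827, Zfp800 and Zfp704 the gap between the groups was several times the range within either group, and the calls held without each library in turn. Zfp703, the partner gene and a human breast cancer oncogene, did not pass the test: it had 290.1, 233 and 187.5 normalised read counts in Dcr KO, against 288 and 336 in Dcr WT.

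The other named genes that rose had smaller changes. Zfp951 had 7665, 9758 and 9488 normalised read counts in Dcr KO, against 4124 and 3339 in Dcr WT (log2 fold change 1.26 ± 0.17, SE; adjusted p = 0.00069). Zfp960 had 3379, 5823 and 4653 in Dcr KO, against 1967 and 1996 in Dcr WT (log2 fold change 1.19 ± 0.22, SE; adjusted p = 0.0036). Zfp810 had 2272, 2970 and 2393 in Dcr KO, against 1320 and 1449 in Dcr WT (log2 fold change 0.87 ± 0.18, SE; adjusted p = 0.00556). In each of these the groups did not overlap, and the call held without each library in turn. Zfp768 had 2213, 1786 and 1737 in Dcr KO, against 1294 and 893 in Dcr WT (log2 fold change 0.82 ± 0.21, SE; adjusted p = 0.0157). Its call was lost without line 1 (adjusted p = 0.0779), without line 3 (adjusted p = 0.0532) and without Dcr WT library 2 (adjusted p = 0.0517).

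**Figure D2:**
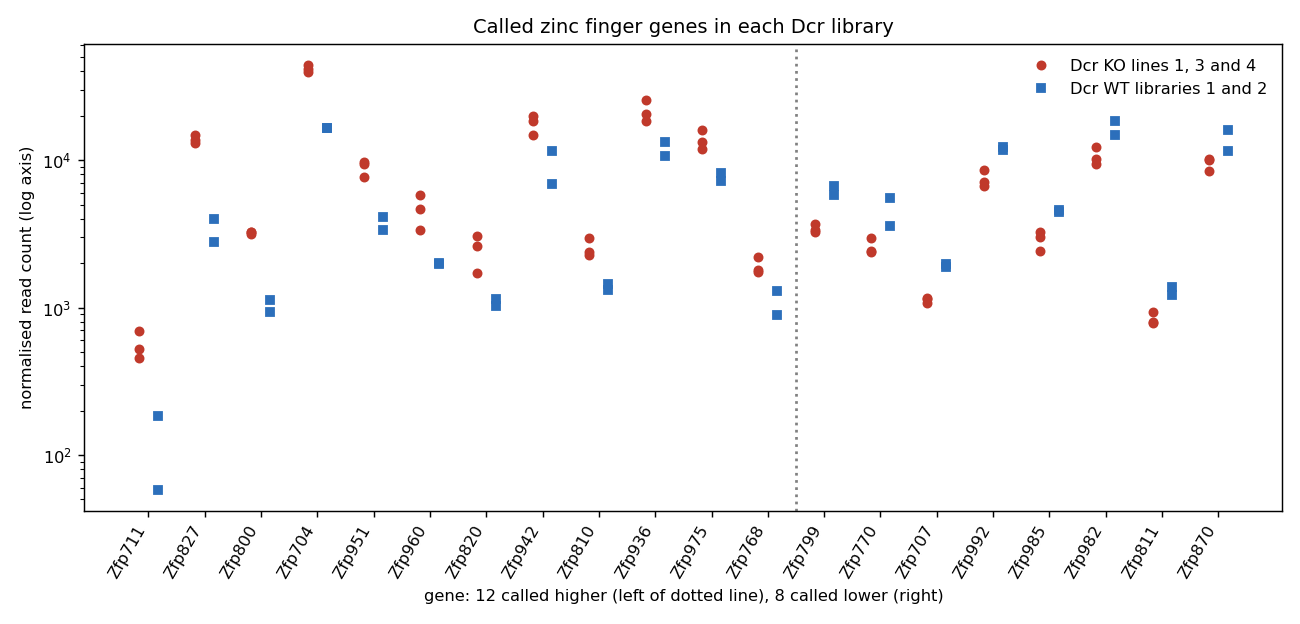
Normalised read count (log axis) of the 12 named genes called higher and the 8 called lower, with 1 point per library: red circles for Dcr KO lines 1, 3 and 4, blue squares for Dcr WT libraries 1 and 2. The groups do not overlap for any of these genes, and the gap is widest for Zfp711, Zfp827 and Zfp800.

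The 8 genes that fell changed by 1.43-fold to 1.82-fold. Zfp799 had 3359, 3668 and 3260 normalised read counts in Dcr KO, against 5818 and 6648 in Dcr WT (log2 fold change −0.86 ± 0.15, SE; adjusted p = 0.0026). Zfp707 had 1163, 1148 and 1080 in Dcr KO, against 1891 and 1964 in Dcr WT (log2 fold change −0.77 ± 0.16, SE; adjusted p = 0.00647). Zfp992 had 6650, 8622 and 7108 in Dcr KO, against 11696 and 12374 in Dcr WT (log2 fold change −0.70 ± 0.16, SE; adjusted p = 0.0087). These are the 3 lower genes whose call held without each library in turn.

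The other 5 lower genes depended on single libraries. Zfp770 had 2433, 2980 and 2384 normalised read counts in Dcr KO, against 3561 and 5519 in Dcr WT, and its log2 fold change of −0.78 ± 0.21 (SE; adjusted p = 0.0198) did not pass without line 1 (adjusted p = 0.0922), line 4 (0.0851) or Dcr WT library 2 (0.0817). Zfp985 had 2415, 3231 and 3004 in Dcr KO, against 4444 and 4605 in Dcr WT (log2 fold change −0.66 ± 0.17, SE; adjusted p = 0.0162, and 0.0585 without line 1). Zfp982 had 9362, 12302 and 10189 in Dcr KO, against 18548 and 14886 in Dcr WT (log2 fold change −0.66 ± 0.17, SE; adjusted p = 0.0164, 0.0785 without line 1 and 0.0665 without line 4). The Dcr KO lines were below both Dcr WT libraries for each of these genes, with line 1 the lowest for Zfp985 and Zfp982.

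Zfp811 had 799, 789 and 936 normalised read counts in Dcr KO, against 1223 and 1388 in Dcr WT (log2 fold change −0.63 ± 0.18, SE; adjusted p = 0.0256). The call did not pass without line 1 (adjusted p = 0.0829), line 3 (0.105) or Dcr WT library 2 (0.0701), nor when the scaling used coding genes alone (0.0509). Zfp870 had 9960, 10104 and 8438 in Dcr KO, against 11485 and 16040 in Dcr WT (log2 fold change −0.52 ± 0.18, SE; adjusted p = 0.0481). The call was lost without line 1 (adjusted p = 0.114), line 3 (0.112), line 4 (0.151) or Dcr WT library 2 (0.233), with a log2 fold change of −0.28 in the last case, and held without Dcr WT library 1. It also missed the threshold with a pseudocount of 0.5 (adjusted p = 0.0523), under upper quartile scaling (0.0615) and when the scaling used coding genes alone (0.0684).

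The members named here for a part in retrovirus silencing did not pass the test under the main settings. Zfp809, which binds the proline primer binding site of murine leukaemia virus and VL30 elements, had 8942, 9448 and 8190 normalised read counts in Dcr KO, against 9831 and 10253 in Dcr WT (log2 fold change −0.18 ± 0.14, SE; adjusted p = 0.338). Zfp932, which controls ERVK elements in ESCs, had 1987, 2849 and 2450 in Dcr KO, against 1867 and 2378 in Dcr WT (log2 fold change 0.19 ± 0.20, SE; adjusted p = 0.492). The Zfp809 values were all lower in Dcr KO than in Dcr WT without passing the test, and the Zfp932 values overlapped.

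Zfp708, which binds RMER19B elements, had 1114, 1293 and 1130 normalised read counts in Dcr KO, against 803 and 847 in Dcr WT (log2 fold change 0.51 ± 0.17, SE; adjusted p = 0.05002). Zfp819, an ESC gene linked to retrotransposon repression, had 7502, 7090 and 6084 in Dcr KO, against 5862 and 3931 in Dcr WT (log2 fold change 0.52 ± 0.19, SE; adjusted p = 0.0677). For both, every Dcr KO line was above both Dcr WT libraries, and the call depended on the processing. Zfp708 passed with a pseudocount of 0.5 (adjusted p = 0.0490), without a filter (0.0463), with a stricter one (0.0487), under upper quartile scaling (0.0315), under scaling by coding genes (0.0423) and with DESeq2 (0.0195). Zfp819 passed under upper quartile scaling (0.0450), under scaling by coding genes (0.0304) and without Dcr WT library 1 (0.00242). Of the repeat rows of the virus families that Zfp809 binds, RLTR4_MM-int had 3179, 3619 and 2724 in Dcr KO, against 1609 and 1257 in Dcr WT (log2 fold change 1.15 ± 0.19, SE; adjusted p = 0.0019). MMVL30-int (log2 fold change 0.73, adjusted p = 0.0150) and RLTR6-int (0.77, adjusted p = 0.0414) were higher too, calls lost for MMVL30-int without line 3 or 4 (adjusted p up to 0.0605) and for RLTR6-int when line 3, line 4 or Dcr WT library 2 was left out (at most 0.129). MuLV-int, RLTR4_Mm and RLTR6_Mm did not pass, with log2 fold changes of 0.19, 0.59 and −0.83. Reads of repeats with near-identical copies are uncertain.

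Of the other genes with a known role, Zfp746, also named PARIS, a substrate of the ubiquitin ligase Parkin, rose. It had 6272, 6179 and 5974 normalised read counts in Dcr KO, against 3941 and 3407 in Dcr WT (log2 fold change 0.74 ± 0.14, SE; adjusted p = 0.00458). Zfp706, which promotes exit from ESC self-renewal, had 19353, 16598 and 15649 in Dcr KO, against 18204 and 17349 in Dcr WT (log2 fold change −0.05 ± 0.14, SE; adjusted p = 0.804), with overlapping groups. Zfp750, a regulator of epidermal differentiation, and Zfp808 had overlapping groups as well, with log2 fold changes of −0.32 ± 0.22 and 0.18 ± 0.16 (SE). Without Dcr WT library 2, that of Zfp750 was −0.68 and passed (adjusted p = 0.0142). Zfp830, needed by the early mouse embryo, had 5551, 4937 and 4220 in Dcr KO, against 3999 and 3903 in Dcr WT (log2 fold change 0.30 ± 0.16, SE; adjusted p = 0.179). Zfp804a, whose human counterpart is a schizophrenia risk gene, was near 0, with at most 5.48 in any of the 5 libraries.

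Some genes of the KRAB repression machinery changed, though not Trim28 or Setdb1 by this test. Of 33 listed genes, 9 were higher and 3 lower, beside 20.9% and 22.9% of coding genes, and their median log2 fold change was 0.11. Leaving out line 3 gave 3 higher and 0 lower, leaving out line 4 gave 8 and 1, and leaving out Dcr WT library 2 gave 11 and 5. Trim28 had 524775, 493853 and 400883 normalised read counts in Dcr KO, against 715922 and 506871 in Dcr WT (log2 fold change −0.36 ± 0.19, SE; adjusted p = 0.183). Setdb1 had 61627, 60058 and 49100 in Dcr KO, against 45644 and 39031 in Dcr WT (log2 fold change 0.42 ± 0.15, SE; adjusted p = 0.0626). The groups overlapped for Trim28 and did not overlap for Setdb1.

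Chd3, a NuRD remodeller that binds Trim28, was the machinery gene with the largest log2 fold change, 1.78 ± 0.15 (SE; adjusted p = 7.19e-05), with 29980, 36907 and 29326 normalised read counts in Dcr KO, against 8807 and 9773 in Dcr WT. Smarcad1, a remodeller bound to Trim28 (log2 fold change 1.18), and Hdac2 (0.89) were also higher, and like Chd3 they kept the call without each library in turn. The histone H3.3 partner Atrx (1.03), the maintenance DNA methyltransferase Dnmt1 (0.70), the Setdb1 partners Resf1 (0.61) and Atf7ip (0.53) and the H3 lysine 9 methyltransferases Suv39h1 (0.61) and Ehmt2 (0.50) were higher with calls that were lost without at least 1 library. Line 3 was among those libraries for all 6, line 1 for Atf7ip, Suv39h1 and Ehmt2, line 4 for Atrx and Suv39h1, and Dcr WT library 2 for Atf7ip and Suv39h1, with adjusted p up to 0.121. Uhrf1, which guides Dnmt1 (−0.64), and Atf7ip2 (−0.52) were among the lower genes. Both calls were lost without line 3, and that of Atf7ip2 also without line 1, line 4 or Dcr WT library 1, with adjusted p up to 0.115.

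Next, the genes were grouped by place. Taking members with at most 5 protein-coding genes between them in the GRCm38.p6 annotation gave 15 groups of 3 or more members, which held 63 of the 109 genes on 9 chromosomes. Of these groups, 7 held higher calls alone, 2 lower calls alone, 1 both and 5 none. Neighbours of this kind often arose by duplication, so they are not independent of each other, and reads of close copies may have been split by the counting.

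The largest group, on chromosome 17, held Zfp758, Zfp760, Zfp820, Zfp942, Zfp943, Zfp945, Zfp946, Zfp947, Zfp948 and Zfp983. In it 5 of 10 genes were higher and 0 lower in Dcr KO, and the median log2 fold change was 0.63. Promoter windows from 250 bases before to 50 bases after the annotated start (RefSeq, GRCm38.p6) were searched for CACGTG, the E-box hexamer bound by Myc with Max, which reads the same on both strands. It occurred in 6 of the 10 windows of the group. For comparison, 7.15% of all 32851 windows held it. Counted by gene, 12 of the 96 genes of the set with a window held it, or 12.5%, against 8.09% of all 27025 genes with a window. Of the 12, 6 were in this group, where Zfp942 and Zfp943 share 1 site. Among tested genes outside the group, 6 held the hexamer and 78 did not. The following 30-base stretches are 4 of those that hold the hexamer, which is in capitals.
Zfp820, chr17:21845861-21845890, minus strand: gtttaggggaacCACGTGaccataaccagc
Zfp942, chr17:21962501-21962530, minus strand: cgttagcgctgtCACGTGaccggaaccgtg
Zfp946, chr17:22424180-22424209, plus strand: tttggggggaacCACGTGaccggaaccggg
Zfp947, chr17:22166031-22166060, minus strand: attttgggaaacCACGTGaccataaccacg

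In the 24 bases beside the hexamer, Zfp820 matched Zfp946 at 17 positions, Zfp947 at 16 and Zfp942 at 14. The stretches of the 4 neighbours without the hexamer that best matched Zfp946 are shown next, with the letters at its place in capitals. Beside those letters they matched Zfp946 at 14 positions, or 16 for Zfp945. Each is the best of all placements in its window on both strands, and the level in unrelated windows was not tested. These matches therefore cannot show that the stretches are counterparts of the hexamer site.
Zfp760, chr17:21707604-21707633, plus strand: ggtcagagaaccTACGTAaccggaacctat
Zfp945, chr17:22867198-22867227, minus strand: gtttaaaggaatCGCATAaccggaagtggg
Zfp948, chr17:21566966-21566995, plus strand: agttagggcagtGACGTGaacggaagctgg
Zfp983, chr17:21650504-21650533, plus strand: gtaaggcggggcCACTTAcccggaaacaga

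In this group, 4 of the 6 genes with the hexamer were higher (Zfp758, Zfp820, Zfp942 and Zfp946) and 1 of the 4 without it (Zfp948), a difference that was not tested. Outside the group, 0 of the 6 tested genes with the hexamer were called, with a median log2 fold change of 0.20. Of the 78 without it, 16 were higher and 5 lower, with a median of 0.15. The higher calls with a hexamer were thus all in the chromosome 17 group. The hexamers of Zfp942 and Zfp943 are the same place in the genome, which lies before the starts of both genes on opposite strands. The 300-base window of Zfp942, chr17:21962415-21962714 on the minus strand, is given because it holds this stretch before 1 called and 1 uncalled gene, with the hexamer in capitals.
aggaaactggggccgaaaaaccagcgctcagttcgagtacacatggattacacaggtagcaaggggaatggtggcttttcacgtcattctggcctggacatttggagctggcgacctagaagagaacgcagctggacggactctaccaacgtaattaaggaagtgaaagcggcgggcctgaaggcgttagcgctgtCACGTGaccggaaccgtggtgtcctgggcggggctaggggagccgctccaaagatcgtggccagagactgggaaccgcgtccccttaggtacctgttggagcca

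Zfp942 had 19923, 18561 and 14889 normalised read counts in Dcr KO, against 11527 and 6920 in Dcr WT (log2 fold change 0.98 ± 0.22, SE; adjusted p = 0.00917, and 0.0658 without line 1). Zfp943 had 992, 1020 and 898 in Dcr KO, against 706 and 1157 in Dcr WT (log2 fold change 0.10 ± 0.23, SE; adjusted p = 0.767). The groups overlapped for Zfp943 and not for Zfp942. The window of Zfp758 shared an unbroken run of 248 bases with that of Zfp943 and of 187 bases with that of Zfp942. How reads were assigned among these 3 genes was not tested.

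Zfp820 had 1724, 3080 and 2596 normalised read counts in Dcr KO, against 1022 and 1137 in Dcr WT (log2 fold change 1.15 ± 0.24, SE; adjusted p = 0.00631), a call that held without each library in turn. Zfp948, Zfp758 and Zfp946 had log2 fold changes of 0.81, 0.75 and 0.70, each with line 3 highest and line 1 lowest of the Dcr KO lines. Their calls were lost without line 3 (adjusted p = 0.103, 0.150 and 0.114 in that order), without line 4 (0.100, 0.112 and 0.0972) and under total count scaling (0.0580, 0.0777 and 0.0683). The uncalled genes were Zfp945 (log2 fold change 0.56), Zfp947 (0.39), Zfp760 (0.23), Zfp943 (0.10) and Zfp983 (−0.37).

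A second group on chromosome 17 went the other way. It held Zfp763, Zfp799, Zfp811, Zfp870, Zfp871 and Zfp952, of which 3 were lower and 0 higher in Dcr KO, with a median log2 fold change of −0.34. The lower ones were Zfp799, Zfp811 and Zfp870, whose values are given above and of which Zfp799 alone kept its call without each library in turn; the largest adjusted p was 0.105 for Zfp811, without line 3, and 0.233 for Zfp870, without Dcr WT library 2. Zfp763 (log2 fold change −0.09), Zfp871 (0.03) and Zfp952 (−0.16) had overlapping groups. The difference between the groups of neighbours was not tested.

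On chromosome 7, Zfp936, Zfp975 and Zfp715 were all higher, with a median log2 fold change of 0.83. Zfp936 had 18413, 25530 and 20609 normalised read counts in Dcr KO, against 10692 and 13177 in Dcr WT (log2 fold change 0.84 ± 0.17, SE; adjusted p = 0.00615). Zfp975 had 11814, 15992 and 13223 in Dcr KO, against 7182 and 8121 in Dcr WT (log2 fold change 0.83 ± 0.16, SE; adjusted p = 0.00503). These calls held without each library in turn, and line 3 was the highest for both. Zfp715 changed less (log2 fold change 0.46; adjusted p = 0.0422), and its call was lost without line 1 (adjusted p = 0.104), line 3 (0.173), line 4 (0.0601) or Dcr WT library 1 (0.106), and under total count scaling (0.0808).

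On chromosome 2, Zfp971 (log2 fold change 0.78; adjusted p = 0.00771) and Zfp970 (0.71; adjusted p = 0.0346) were higher and Zfp931 (−0.01) was not called. The Zfp971 call held without each library in turn, and that of Zfp970 was lost without line 3 (adjusted p = 0.134), line 4 (0.100) or Dcr WT library 1 (0.0515), and under total count scaling (0.0731). On chromosome 6, Zfp777, next to Zfp746, rose with it: it had 7985, 7457 and 7376 normalised read counts in Dcr KO, against 4965 and 4314 in Dcr WT (log2 fold change 0.72 ± 0.14, SE; adjusted p = 0.0053). Both calls held without each library in turn.

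On chromosome 4, Zfp992 fell and its neighbour Zfp987 rose, the only group with calls in both directions. Zfp987 had 5810, 7593 and 7242 normalised read counts in Dcr KO, against 5120 and 4615 in Dcr WT (log2 fold change 0.49 ± 0.16, SE; adjusted p = 0.0451). Its call was lost without line 3 (adjusted p = 0.179), line 4 (0.129) or Dcr WT library 2 (0.100), and under total count scaling (0.101). In a second group there, Zfp982 and Zfp985, described above, were lower and 3 others were not called, with a median of −0.22 over the 5.

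**Figure D3:**
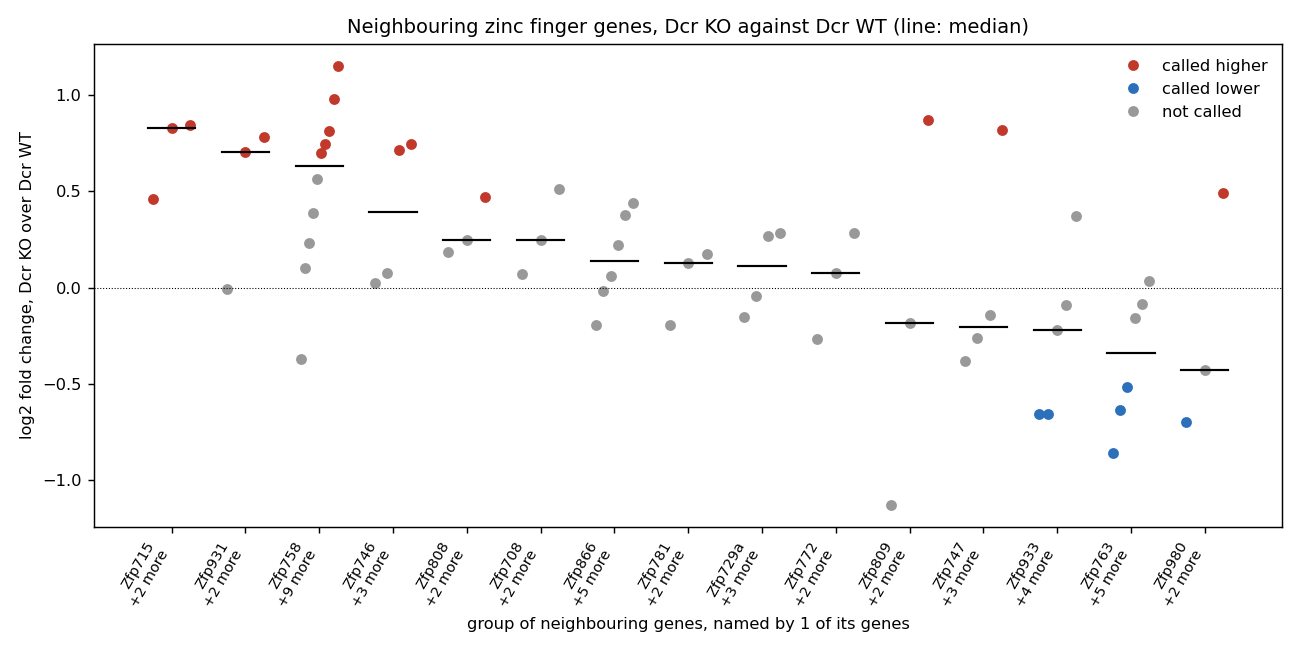
Log2 fold change (Dcr KO over Dcr WT, vertical axis) of the genes in the 15 groups of neighbours, each group named by 1 of its genes and ordered by its median (black line); red marks genes called higher, blue genes called lower and grey genes not called. The group of Zfp758 on chromosome 17 has 5 higher genes and a median of 0.63, and that of Zfp763, also on chromosome 17, has 3 lower genes and a median of −0.34.

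The second comparison, cMyc KO against cMyc flox, had 1 library on each side, so no test was possible and intervals cover counting error only. Of the 106 genes, 104 had at least 20 reads over both libraries. Most were lower in cMyc KO: 82 of the 104 were lower and 22 higher. The share lower was 78.8%, against 42.9% of all features, 36.2% of coding genes and 53.8% of the Zfp genes with a lower number. The median log2 difference of the genes was −0.30. Over coding genes the median was 0.11, over all features 0.07 and over the Zfp genes with a lower number −0.05. The 95% counting interval of the ratio lay below 1 for 56 of the 104 and above 1 for 7. The shares below and above 1 were 16.4% and 35.9% of coding genes, 17.6% and 30.2% of all features, and 29.1% and 22.4% of the Zfp genes with a lower number. Marker lists moved here too: the summed normalised read count was 3242 in cMyc KO and 1875 in cMyc flox for the 8 fibroblast markers, with 3 intervals above 1 and 0 below. It was 3623 in cMyc KO and 2553 in cMyc flox for the 6 neural markers (3 above, 0 below), and 396 in cMyc KO and 340 in cMyc flox for primitive endoderm markers (1 above, 0 below). Lum and Afp were at 0 in cMyc flox. For the 8 ESC markers the sums were 49820 in cMyc KO and 42089 in cMyc flox, with 7 intervals above 1 and 1 below, and the part of these shifts in the values was not tested.

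Most genes were also lower under the other scalings, which moved every ratio down. Scaling to the total count moved the median of all features by −0.14 and gave 91 genes lower and 13 higher, with 58.7% of all features lower. Scaling by coding genes alone moved that median by −0.11 and gave 90 and 14, with 55.2% of all features lower. Relative to the median of all features, the genes lay at −0.36 under each of the 3 scalings. Coding genes lay at 0.04 and the Zfp genes with a lower number at −0.12. With 1 library per group, a scaling multiplies every ratio by the same factor. These distances were therefore fixed in advance and are no check of the direction. The sizes were small. Past 2-fold there were 3 lower genes and 0 higher as deposited. Also as deposited, 0.538% of coding genes were lower and 1.44% higher by that measure, as were 2.06% and 1.43% of all features. For the Zfp genes with a lower number the shares were 0.897% and 0.0%. Under total count scaling 10 genes were lower past 2-fold, and 8 under scaling by coding genes. The shares of all features past 2-fold under those scalings are not given, so these counts cannot be set against them.

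**Figure D4:**
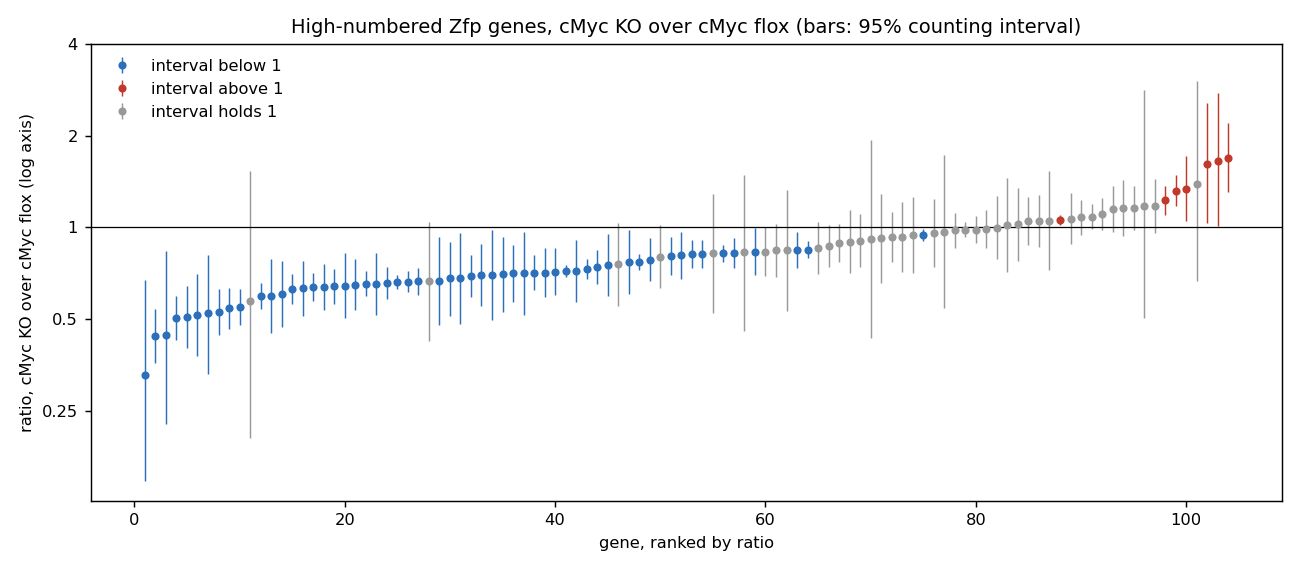
Ratio of the normalised read counts, cMyc KO over cMyc flox (log axis), for the 104 genes with at least 20 reads, ranked along the horizontal axis; bars are 95% counting intervals, blue where they lie below 1 (56 genes), red above 1 (7 genes) and grey where they hold 1. Most points lie below the line at 1, down to 0.326 for Zfp712.

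The 3 genes past 2-fold as deposited were Zfp712, Zfp932 and Zfp964. Zfp932, the ERVK regulator named above, had 135 normalised read counts in cMyc KO and 307 in cMyc flox, from 149 and 291 reads, a ratio of 0.440 (95% counting interval 0.359 to 0.538). Zfp712 had 9.97 in cMyc KO and 30.6 in cMyc flox, from 11 and 29 reads, a ratio of 0.326 with a wide interval of 0.147 to 0.673. Zfp964 had 14.5 in cMyc KO and 32.7 in cMyc flox, a ratio of 0.444 (0.227 to 0.837). Of the 3, Zfp932 had the most reads and the narrowest interval.

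Next in size came Zfp930, with 208 normalised read counts in cMyc KO and 414 in cMyc flox (ratio 0.503, interval 0.426 to 0.594). Zfp760 had 107 in cMyc KO and 211 in cMyc flox (ratio 0.507, interval 0.401 to 0.640). Zfp800 had 62.5 in cMyc KO and 121 in cMyc flox (ratio 0.516, interval 0.377 to 0.701). All 3 intervals lay below 1 as deposited, and the other scalings lower every ratio further.

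At the other end, Zfp771 had 164 normalised read counts in cMyc KO and 97.0 in cMyc flox (ratio 1.69, interval 1.31 to 2.20). Zfp775 had 652 in cMyc KO and 494 in cMyc flox (ratio 1.32, interval 1.17 to 1.48). Their intervals lay above 1 under each of the 3 scalings. Zfp786 (ratio 1.65, interval 1.01 to 2.77), Zfp703 (1.61, 1.03 to 2.56) and Zfp954 (1.34, 1.05 to 1.71) had intervals above 1 as deposited, which held 1 under total count scaling and under scaling by coding genes alone. Zfp711 had 21 reads in cMyc KO and 13 in cMyc flox, and its interval of 0.664 to 3.02 held 1 throughout.

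Of the other genes with a known role, Zfp809 had 729 normalised read counts in cMyc KO and 742 in cMyc flox (ratio 0.982, interval 0.886 to 1.09, or 0.804 to 0.987 under total count scaling), and Zfp830 had 429.5 in cMyc KO and 439 in cMyc flox (ratio 0.977, interval 0.855 to 1.12). Zfp706 had 2325 in cMyc KO and 2369 in cMyc flox, a ratio of 0.981 whose interval held 1 as deposited (0.927 to 1.04) and lay below 1 under total count scaling (0.841 to 0.942). Zfp808 (ratio 0.657, interval 0.581 to 0.743) and Zfp750 (0.715, interval 0.599 to 0.854) were lower in cMyc KO.

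Groups of neighbours differed in cMyc KO. In the chromosome 17 group of Zfp758, 9 of 10 genes were lower, with a median log2 difference of −0.44, and in that of Zfp763 6 of 6, with a median of −0.53. The 3 genes of the chromosome 7 group of Zfp936 were lower, with a median of −0.43. The other scalings lower every ratio, so they could not reverse these directions. In the chromosome 6 group of Zfp746 and Zfp777, 0 of 4 were lower as deposited, with a median of 0.13, and 2 of 4 under total count scaling, with a median of −0.01. In the chromosome 7 group of Zfp747, Zfp764, Zfp768 and Zfp771, 1 of 4 was lower under each scaling, with medians of 0.22 as deposited and 0.08 under total count scaling. In that of Zfp772, Zfp773 and Zfp954, 1 of 3 was lower as deposited and 2 under the other scalings. Genes with the CACGTG hexamer in the promoter window were lower in 8 of 12 cases, with a median of −0.27, and those without it in 65 of 80, with a median of −0.31.

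Of 33 repression machinery genes, 17 had a 95% counting interval above 1 and 11 below, beside 35.9% and 16.4% of coding genes. Their median log2 difference was 0.10, against 0.11 over coding genes. Among them, Trim28 had 49419 normalised read counts in cMyc KO and 34788 in cMyc flox, a ratio of 1.42 (95% counting interval 1.40 to 1.44). Setdb1 had 2908 in cMyc KO and 3032 in cMyc flox (ratio 0.959, interval 0.912 to 1.01). Atrx was the 1 machinery gene past 2-fold, with 2851 in cMyc KO and 5800 in cMyc flox (ratio 0.492, interval 0.470 to 0.514).

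Set side by side, the comparisons come from different cells, tables and library layouts and share no library. Of the 25 genes higher in Dcr KO, 15 had a cMyc interval below 1 and 2 above 1, and of the 8 lower genes 5 and 0. Of the 72 uncalled genes with a cMyc value, 36 had an interval below 1. The median cMyc log2 difference was −0.38 for the 25 higher genes and −0.34 for the 8 lower ones. Zfp800 stood far out in both, higher in Dcr KO with a log2 fold change of 1.65 and lower in cMyc KO with a log2 difference of −0.94. Zfp827, with a log2 fold change of 2.06 in Dcr KO, had a cMyc ratio of 0.928 whose interval, 0.767 to 1.12, held 1.

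**Figure D5:**
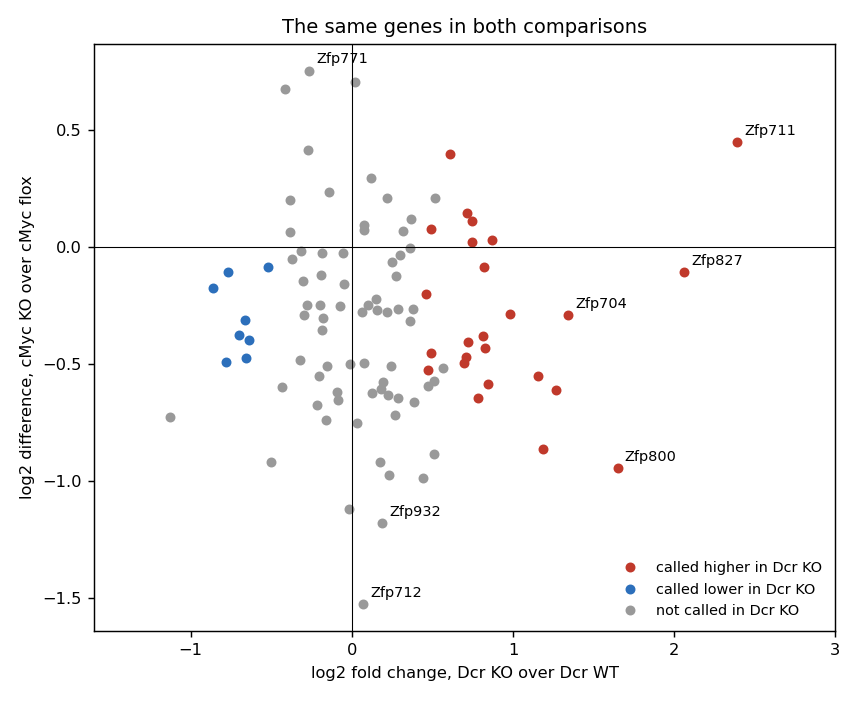
Log2 fold change in Dcr KO over Dcr WT (horizontal axis) against the log2 difference between cMyc KO and cMyc flox (vertical axis). Each point is 1 gene tested in the first comparison with at least 20 reads over both cMyc libraries. Red marks genes called higher in Dcr KO, blue lower and grey not called. Points below the horizontal line at 0 are lower in cMyc KO, and they lie on both sides of the vertical line.

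The remaining called genes were Zfp790, Zfp775, Zfp710 and Zfp934, named after their values were seen apart from Zfp775. Zfp790 had 3135, 2793 and 3060 normalised read counts in Dcr KO, against 1839 and 1784 in Dcr WT (log2 fold change 0.72 ± 0.15, SE; adjusted p = 0.00656), and its call held without each library in turn. Zfp775 (log2 fold change 0.61) lost its call without line 1 (adjusted p = 0.0560), without line 4 (0.0574) and under total count scaling (0.0543). Zfp710 (0.49) lost its call without line 1 (adjusted p = 0.0914), line 3 (0.155) or Dcr WT library 2 (0.0813). Zfp934 (0.47) lost its call when any of the 5 libraries was left out (adjusted p up to 0.196), and under total count scaling (0.0993). Calls of neighbours described above that are not among the 12 highest, such as Zfp758 and Zfp971, were also named after their values were seen.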

How the data were processed

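RNA libraries were made from poly(A)-selected RNA with the dUTP method, per the labels' protocols. The submitters' processing notes name TopHat, Bowtie, DESeq and the build mm9, without roles or versions. For the counting tool, its use of strand and its gene models, the sources used here give nothing. The authors deposited a normalised signal per feature: read counts divided by 1 factor per library, so that 100% of the values of 6 libraries and 99.9975% of the cMyc flox values were whole reads within 0.01 read. The columns without a sample numbered 0.

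RefSeq identifiers were given symbols from the GRCm38.p6 annotation, with 19362 of 19683 coding rows matched in the Dicer table and 16246 of 16484 in the cMyc table; where a symbol had several rows, the one with the highest mean was kept. Coordinates are those of the RefSeq promoter table, and 10 of 10 genes of the largest neighbour group and 96 of the 109 genes in all matched it. The genes and lists were chosen with earlier results of these data known. KRAB domains and fingers of the proteins, and the chromatin libraries, were not analysed here.

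The test of Dcr KO against Dcr WT was limma's two-sided moderated test with a mean-variance trend (version 3.58.1, in R 4.3.3) on log2(value + 1). It covered the 42358 features that reached 1 in 2 or more libraries. P-values were adjusted over all of them by Benjamini-Hochberg, with 0.05 as the threshold. The plan for normalised values set this test. Log2 fold changes understate changes near 0. Alternatives were other pseudocounts, filters and scalings, limma without trend, edgeR 4.0.16 and DESeq2 1.42.0 on the whole reads, and each library left out. The procedure was tested on simulated data. For cMyc, exact conditional 95% intervals of the ratio were taken from the reads. At these depths a ratio from 11 and 29 reads has an interval of 0.147 to 0.673, and one from 2566 and 2248 reads 0.927 to 1.04.

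The genes named were up to 12 called higher and up to 12 called lower with the largest change and a mean of at least 50 (12 and 8 genes), genes with a known role, the 6 highest and 6 lowest in cMyc KO, the called machinery genes except 1 that is not reported here, Dicer1 and Myc.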

Additional observations from a re-analysis of the deposited data

How the results depend on the processing

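No paired analysis was run, because the labels give no pairing between the Dcr KO lines (1, 3 and 4) and the Dcr WT libraries (1 and 2). For the 39 named genes, 534 of 584 alternatives left direction and side of the threshold as they were, 40 ended a call, 10 made one and 0 reversed one. Without the limma trend, calls fell to 5 genes higher and 1 lower, to 4243 and 3832 of all features and to 3 and 0 of the machinery genes. Leaving out 1 library at a time gave 16 to 26 genes higher and 3 to 13 lower, a median of 0.0445 to 0.2544, 3782 to 8022 and 3847 to 5935 of all features, and 3 to 11 of the machinery genes higher and 0 to 5 lower; where 1 Dcr WT library remained, it was assumed to vary like the other group. Total count scaling gave 6 lower machinery genes. edgeR called 25 genes higher and 8 lower and DESeq2 27 and 8, all 33 limma calls among them. Of all features, edgeR called 6594 higher and 6466 lower, and DESeq2 7067 and 6859. Upper quartile scaling gave 28 and 7, beside 7827 and 5796 of all features. Scaling by coding genes gave 27 and 6, beside 7566 and 5905 of all features. For cMyc, a 1.5-fold limit gave 3 genes higher and 27 lower. At 2-fold, total count scaling gave 10 lower and scaling by coding genes 8. The shares of all features at that 1.5-fold limit, and at 2-fold under those scalings, are not given. These counts therefore have no background beside them. The cause of the shifts between settings was not tested. With 2 Dcr WT libraries and 1 library per cMyc group, the number of libraries and the cMyc depth limit precision.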

Other observations

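The control libraries of the 2 tables were normalised separately, so a ratio between them has meaning only relative to other genes. Over 13073 coding genes with at least 10 cMyc flox reads, the mean of the Dcr WT libraries over the cMyc flox value had a median of 12.3, with the 5th to 95th percentile at 4.25 to 23.0. The median over 104 of the zinc finger genes was 10.7. Zfp957 was listed at 0 in all 5 Dcr libraries, yet had 15 reads in cMyc KO and 11 in cMyc flox. Zfp943, Zfp933 and Zfp781 had ratios of 0.477, 1.73 and 1.84, below the 5th percentile of coding genes. Below it too were Zfp966 (2.24), Zfp987 (3.24), Zfp960 (3.49), Zfp870 (3.64) and Zfp982 (3.78). Zfp987, Zfp960, Zfp870 and Zfp982 were called in Dcr KO against Dcr WT, and Zfp943, Zfp933, Zfp781 and Zfp966 were not. Zfp819 and Zfp773 had ratios of 29.0 and 55.8, above the 95th percentile. Zfp943 had 931 normalised read counts as the Dcr WT mean and 1952 in cMyc flox, while Zfp942, its neighbour on the other strand, had 9223 and 2101. These genes were picked for their values, and the cell lines, layout, depth and gene models of the tables cannot be told apart here.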
